A study of Mus musculus with 10 samples.

Results

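Thin filament, Z-disc and M-band genes of the sarcomere, the contractile unit of muscle, were examined in the lateral and septal walls of mouse left ventricles. The 32 genes were listed by name as sarcomere genes other than myosin chains, and 29 of them had a feature on the array among 16504 measured genes. Smpx, Xirp1 and Xirp2 had none by symbol or gene number and were not analysed here. Each array held lateral and septal RNA of the same source in Cy3 and Cy5, and each source had 2 arrays with the dyes exchanged. The sources were 4 dyssynchronous hearts from separate mice, numbered 1, 3, 4 and 5 in the labels, whose design text names a pacemaker implantation, and 1 pooled RNA of synchronous controls. The sources used here give no strain, age, pacing time or number of pooled mice.

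In the sarcomere, calcium binding to troponin moves tropomyosin on the actin filament and lets myosin bind. Thin filaments are anchored at the Z-disc by alpha-actinin and a set of LIM, PDZ and calsarcin proteins, while titin spans from the Z-disc to the M-band, where myomesins cross-link the thick filaments. Several of these proteins exist as cardiac, slow skeletal and fast skeletal isoforms, and in the heart many Z-disc proteins are studied as sensors of mechanical load.

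Each value is the log2 of lateral over septal signal, taken as the average of a heart's dye-swapped arrays, so that a negative value is lower in the lateral and higher in the septal wall. The sign rests on reading the deposited values as Cy5 over Cy3, which is likely rather than stated, and every side given here would be exchanged if the ratio ran the other way. After the arrays were signed by their dye labels, the atrial light chain gene Myl7 was below 0 on all 8 heart arrays. No channel intensities were used, so a ratio does not tell how abundant a transcript was or whether it was above background. In tissue RNA, fewer cells of a type and less RNA per cell cannot be told apart. Each member had 1 feature except the titin gene Ttn, which had 7.

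The wall ratios of most members were small. The member means over the 4 hearts had a median of -0.067, against 0.0026 over all genes, and 25 of 29 members had a mean between -0.2 and 0.2, or 86.2%, against 77.5% of all genes. The SD between hearts had a median of 0.10 for members and 0.23 for all genes. In single hearts the median of the 29 members was -0.028, -0.11, -0.019 and -0.058 in hearts 1, 3, 4 and 5, and -0.11 in the control pool. The members below 0 numbered 17, 23, 15 and 19 in those hearts and 26 in the pool, while 47.3%, 50.1%, 47.5% and 46.5% of all genes were below 0 in the hearts and 45.5% in the pool.

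**Figure D1:**
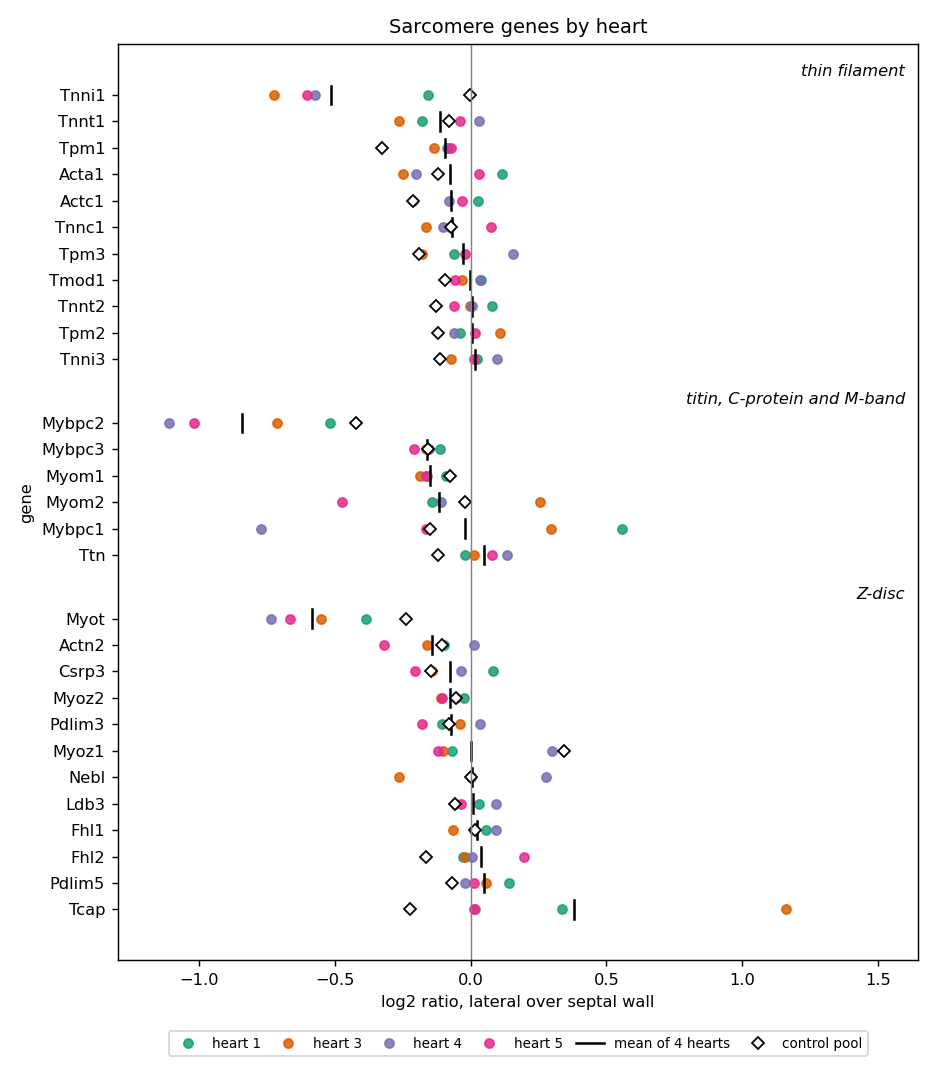
Log2 ratio of lateral over septal wall for the 29 measured sarcomere genes, grouped by place in the sarcomere, with 1 point per dyssynchronous heart, a bar at the mean of the 4 hearts and a diamond for the control pool. Mybpc2, Myot and Tnni1 lie left of 0 in all 4 hearts, and Tcap spreads from 0.012 in heart 5 to 1.16 in heart 3.

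By sign alone, 7 members were lower laterally in all 4 hearts (Tnni1, Tpm1, Mybpc3, Mybpc2, Myom1, Myoz2 and Myot), where 7.63% of all genes were. Of these, Tpm1, Mybpc3, Myom1 and Myoz2 had means between -0.2 and 0.2. On single arrays, Tpm1 was lower on 5 and Myoz2 on 4 of the 8 heart arrays. A single member, Tcap, was higher laterally in all 4 hearts, against 7.8% of all genes. On all 8 arrays of the hearts, 5 members were lower laterally, namely Tnni1, Mybpc3, Mybpc2, Myom1 and Myot, where 0.685% of all genes were, and 0 members were higher laterally, where 0.648% of all genes were. Beyond 1.5-fold in every heart there was no member, and 0.0848% of all genes were that far on the septal side. limma (moderated linear models, Benjamini-Hochberg adjustment over all 16504 genes) called 0 of 29 members and 0% of all genes at an adjusted p under 0.05. At an unadjusted p under 0.05 the limma fit held 934 genes, where 825.2 are expected by chance, and 5 members, the ones lower on all 8 arrays. The members and lists were chosen with earlier results of these data known, so these counts are descriptions. With 4 hearts, the exact permutation of signs reaches no two-sided p under 0.125.

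Promoter sequence from RefSeq (GRCm38.p6) was at hand for 4 of the 5 genes that were lower laterally on all 8 arrays, and the 250 bases before each annotated start are shown on the gene's strand because these genes lay on the same side on every heart array. The windows are chr7:44524670-44524919 (minus strand) for Mybpc2, chr1:135799171-135799420 (plus strand) for the first of the Tnni1 starts, chr2:91117894-91118143 (plus strand) for Mybpc3 and chr17:71019307-71019556 (plus strand) for Myom1. Capitals mark matches, on either strand, to the MEF2 motif, the CArG box of serum response factor, the M-CAT element CATTCC and the TATA box TATAAA.
Mybpc2: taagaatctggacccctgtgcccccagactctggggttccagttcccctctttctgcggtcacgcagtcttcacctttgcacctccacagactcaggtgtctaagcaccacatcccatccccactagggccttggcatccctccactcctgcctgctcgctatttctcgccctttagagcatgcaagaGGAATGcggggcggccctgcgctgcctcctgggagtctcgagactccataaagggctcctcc
Tnni1: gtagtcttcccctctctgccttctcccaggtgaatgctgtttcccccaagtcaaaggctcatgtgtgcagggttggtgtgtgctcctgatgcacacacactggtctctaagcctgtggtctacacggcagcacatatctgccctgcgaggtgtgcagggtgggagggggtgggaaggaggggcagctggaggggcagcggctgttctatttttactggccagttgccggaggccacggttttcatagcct
Mybpc3: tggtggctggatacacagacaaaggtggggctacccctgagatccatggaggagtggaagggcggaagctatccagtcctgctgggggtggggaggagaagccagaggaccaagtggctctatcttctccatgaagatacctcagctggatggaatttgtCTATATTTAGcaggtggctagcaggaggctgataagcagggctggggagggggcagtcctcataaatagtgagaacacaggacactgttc
Myom1: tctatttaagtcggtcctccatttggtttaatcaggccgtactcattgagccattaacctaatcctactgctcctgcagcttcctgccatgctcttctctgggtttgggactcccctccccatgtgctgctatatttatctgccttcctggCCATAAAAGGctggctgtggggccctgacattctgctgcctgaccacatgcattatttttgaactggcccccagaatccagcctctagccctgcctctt
The 4 windows shared no match to these motifs. Mybpc2 had an M-CAT match on the opposite strand 62 bases before the start, Mybpc3 a MEF2 match 90 bases before it and Myom1 a CArG box 99 bases before it, while Tnni1 had none of the 4. E-boxes, CANNTG, occurred in all 4 windows, as in 66.2% of 32851 windows of all genes.

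Over the listed genes, the CArG box occurred before a start of 7 of the 27 with a promoter entry (Acta1, Actc1, Fhl1, Fhl2, Ldb3, Myom1 and Nebl), while 1.62% of all 27025 genes held it. MEF2 matches were found for 5 of the 27 (Fhl2, Mybpc3, Myoz2, Ttn and Xirp2), against 3.42% of all genes, and M-CAT matches for 8, against 14.4%. A gene with several starts counts once, and a match describes letters only. Of the 7 genes with a CArG box, Myom1 alone was lower laterally in all 4 hearts.

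Among the C-proteins, which bind myosin and titin in the thick filament, separate genes encode the fast skeletal, cardiac and slow skeletal isoforms. Mybpc2, the fast skeletal isoform, stood at -0.52, -0.71, -1.11 and -1.02 (hearts 1, 3, 4 and 5, an order kept below), against -0.42 for the pool. All 4 hearts were below 0 and below the pool, with heart 4 lowest. The mean was -0.84 ± 0.27 (SD, n = 4), or 1.79-fold lower laterally, with a limma adjusted p of 0.732. With lateral RNA in Cy5 the 4 heart arrays read -0.42, -0.78, -1.03 and -0.97, and with lateral RNA in Cy3 they read -0.62, -0.65, -1.19 and -1.07. The pool arrays read -0.28 and -0.57 in the same order, so exchanging the dyes left every array on the septal side.

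Mybpc3, the cardiac isoform and a frequent site of mutations in hypertrophic cardiomyopathy, had a smaller ratio with little spread. Its values were -0.11, -0.16, -0.15 and -0.21 in the 4 hearts and -0.16 in the pool. The mean of -0.16 ± 0.038 (SD, n = 4), 1.12-fold lower laterally, lay at the value of the pool (limma adjusted p 0.797). On the 8 heart arrays the ratios ran between -0.28 and -0.034. Mybpc1, the slow skeletal isoform, had 0.56, 0.30, -0.77 and -0.17 in the hearts and -0.15 in the pool. The SD of its 4 hearts, 0.58, was the widest among the 29 members. Its hearts fell on both sides of 0, and in heart 4 the 2 arrays themselves read -0.18 and -1.36.

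Myot encodes myotilin, which binds alpha-actinin and filamin at the Z-disc. It stood at -0.39, -0.55, -0.74 and -0.67 in the 4 hearts, against -0.24 for the pool. As with Mybpc2, all hearts lay below the pool and heart 4 was lowest, followed by hearts 5, 3 and 1. The mean was -0.59 ± 0.15 (SD, n = 4), 1.5-fold lower laterally (limma adjusted p 0.732). The 8 heart arrays ran from -0.85 to -0.35, and the pool arrays read -0.17 and -0.31.

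Mybpc2 and Myot were the only members with a call in any fit run. A limma fit to single arrays that included the dye, and treated each heart as a random block, gave adjusted p-values of 0.0242 and 0.0134 and called 14 genes lower laterally, or 0.0848% of all genes. Without the dye term the values were 0.00679 and 0.00474. The correlation these fits estimated between the 2 arrays of a heart was -0.049 with and -0.277 without the dye term. With values below 0, the fits weigh 2 arrays of the same RNA as at least 2 independent samples, so they count too many replicates. Fits with 1 value per heart called neither gene.

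Tnni1, the troponin I of slow skeletal and fetal heart muscle, was the lowest thin filament gene. Its ratios were -0.16, -0.72, -0.57 and -0.60 in the 4 hearts, against -0.0035 for the pool, so every heart lay below the pool and heart 1 was nearest to it. The mean was -0.51 ± 0.25 (SD, n = 4), 1.43-fold lower laterally, with a limma adjusted p of 0.797. The dye orientations differed in size: lateral Cy5 arrays read -0.27, -0.028, -0.32 and -0.47, and lateral Cy3 arrays -0.043, -1.42, -0.82 and -0.74. In heart 3 one array was near 0 and the other the lowest of all, and the pool arrays had opposite signs, -0.17 and 0.16. Tnni3, the cardiac isoform that replaces it after birth, had 0.024, -0.072, 0.10 and 0.012 in the hearts, a mean of 0.015 ± 0.069, and -0.11 in the pool.

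**Figure D2:**
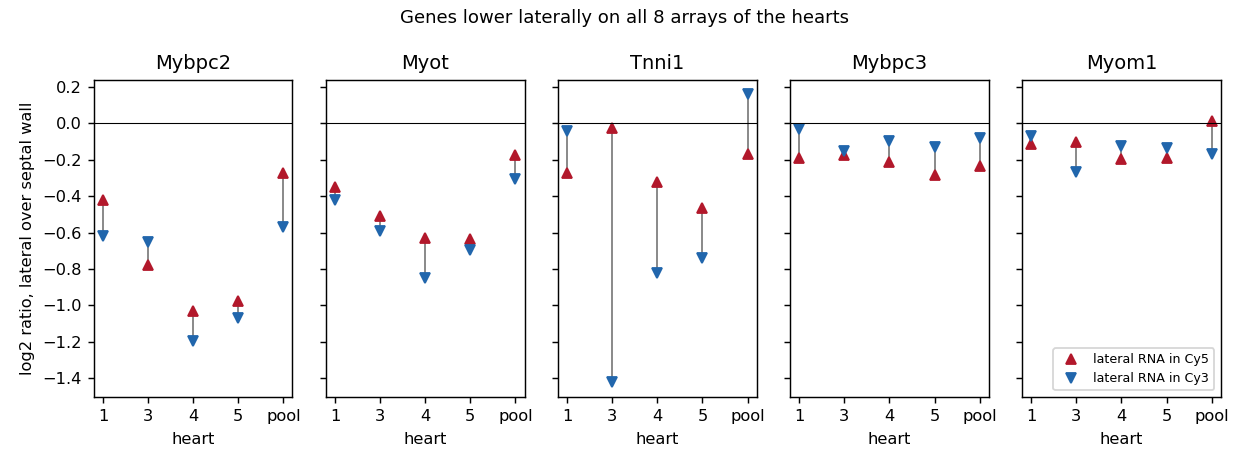
Log2 ratio of lateral over septal wall on each array for the 5 members below 0 on all 8 heart arrays, with lateral RNA in Cy5 as upward and in Cy3 as downward triangles joined for each heart and the pool. On the shared axis the 2 orientations lie close together for Mybpc2, Myot, Mybpc3 and Myom1, and apart for Tnni1, most of all in heart 3. For Mybpc3, with a mean of -0.16, the orientation means were -0.22 in Cy5 and -0.10 in Cy3.

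Markers of other muscle types and of fibrous tissue were measured beside these 3 genes, since Mybpc2 and Tnni1 are best known from skeletal muscle. The 17 fast skeletal markers had medians of 0.075, 0.031, 0.059 and -0.66 in hearts 1, 3, 4 and 5 and 0.072 in the pool. Of them, 0 were lower laterally in all 4 hearts, where 7.63% of all genes were. Single skeletal markers were mixed within a heart. In heart 4 they ran from Casq1 at -1.04 to Tnni2 at 0.48. In heart 5 they ran from the myosin heavy chain gene Myh4 at -2.96 to Eno3 at 0.21. Myh4 had exact zeros on 5 of 10 arrays. The 11 measured atrial markers had medians of -0.38, -0.40, -0.27 and -1.48 in the hearts and 0 in the pool. In all 4 hearts 6 of the 11 were lower laterally, against 7.63% of all genes. The atrial light chain Myl7 was lowest, between -6.10 and -3.36. Nr2f2 was above 0 in all 4 hearts, and Sln, Nppa, Bmp10 and Mybphl had hearts on both sides of 0. Of 12 fibroblast and fibrous tissue markers, 5 were lower laterally in all 4 hearts, against 7.63% of all genes. On all 8 heart arrays 3 were lower, against 0.685% of all genes. Their medians were -0.18, -0.062, -0.23 and -0.35 in the hearts and -0.026 in the pool. Comp, a matrix protein of cartilage and tendon, had -2.55, -0.81, -3.69 and -2.79 in the hearts and -0.52 in the pool. The lowest heart differed between the fibrous markers. It was heart 4 for Comp, Cilp, Col1a2 and Lum, and heart 5 for Fmod, Dcn, Pdgfra and Tcf21. Postn, Tnmd and Col3a1 were lowest in heart 1, and Col1a1 in heart 3. Cilp averaged -0.74 ± 0.24 and Col3a1, a collagen of fibrous tissue, was above 0 in all 4 hearts. The part of skeletal muscle, atrial muscle and fibrous tissue in the ratios of Mybpc2, Myot and Tnni1 was not tested. The 12 ventricular markers, such as Myl2 at -0.14 ± 0.070, had a median of 0.0064 in the hearts and -0.084 in the pool. All 12 heart means lay between -0.2 and 0.2.

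The other thin filament genes were near 0. Tnnt2, cardiac troponin T, which holds the troponin complex on tropomyosin, had 0.079, -0.0040, 0.0066 and -0.060 in the hearts and -0.13 in the pool. Its mean was 0.0055 ± 0.057 (SD, n = 4). Tnnc1, the calcium-binding troponin C of heart and slow muscle, averaged -0.067 ± 0.10, with heart 5 alone above 0. Tnnt1, the slow skeletal troponin T, averaged -0.11 ± 0.13. limma called none of these 3 genes (adjusted p 0.987, 0.822 and 0.797).

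Tropomyosins lie along actin and block or open the myosin sites. Tpm1, the main tropomyosin of the heart, had -0.085, -0.13, -0.086 and -0.073 in the hearts, all below 0 and all above the pool at -0.33. Its mean was -0.095 ± 0.027 (SD, n = 4, limma adjusted p 0.797). The dye orientations differed, as the heart arrays averaged 0.0056 with lateral RNA in Cy5 and -0.19 with lateral RNA in Cy3. Tpm2 and Tpm3, the beta and gamma tropomyosins, averaged 0.0065 ± 0.076 and -0.027 ± 0.14.

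Of the sarcomeric actins, cardiac Actc1 stood at 0.027, -0.21, -0.080 and -0.032 and skeletal Acta1, an isoform of the fetal and stressed heart, at 0.12, -0.25, -0.20 and 0.031 in hearts 1, 3, 4 and 5. For both genes heart 3 was lowest and heart 1 highest, and the pool was at -0.21 for Actc1 and -0.12 for Acta1. The means of -0.074 ± 0.10 and -0.075 ± 0.18 (SD, n = 4) had limma adjusted p-values of 0.816 and 0.843. Tmod1, which caps the slow-growing end of the thin filament, averaged -0.0042 ± 0.048.

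At the M-band, Myom1, the myomesin found in all striated muscle, had -0.091, -0.18, -0.16 and -0.16 in the hearts and -0.076 in the pool. The mean of -0.15 ± 0.041 (SD, n = 4), 1.11-fold lower laterally, had an adjusted p of 0.797 in limma, and all 8 heart arrays lay between -0.27 and -0.067. Myom2, the isoform of fast fibres and adult heart, had -0.14, 0.25, -0.11 and -0.47. It was higher laterally in heart 3 on both arrays (0.24 and 0.26) and lower in heart 5 on both (-0.50 and -0.45), so its hearts disagreed by more than its arrays did.

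Titin, the giant spring of the sarcomere, was read by 7 features with unlike values. Averaged, Ttn had -0.021, 0.011, 0.13 and 0.079 in the hearts and -0.12 in the pool. The mean was 0.051 ± 0.070 (SD, n = 4). The 5 features annotated to the RefSeq mRNA had heart means from -0.045 to 0.21. Feature 12088 had -0.011, 0.030, 0.018 and -0.079 in hearts 1, 3, 4 and 5, and feature 18159 had 0.25, -0.18, 0.044 and 0.71. The feature of a cDNA clone, 16646, had -0.60, 0.45, 0.60 and 0.42, and the other clone feature, 19108, was exactly 0 on 9 of 10 arrays. Without both clone features the Ttn mean was 0.0278 ± 0.0726 (SD, n = 4), a value added after the data were seen.

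**Figure D3:**
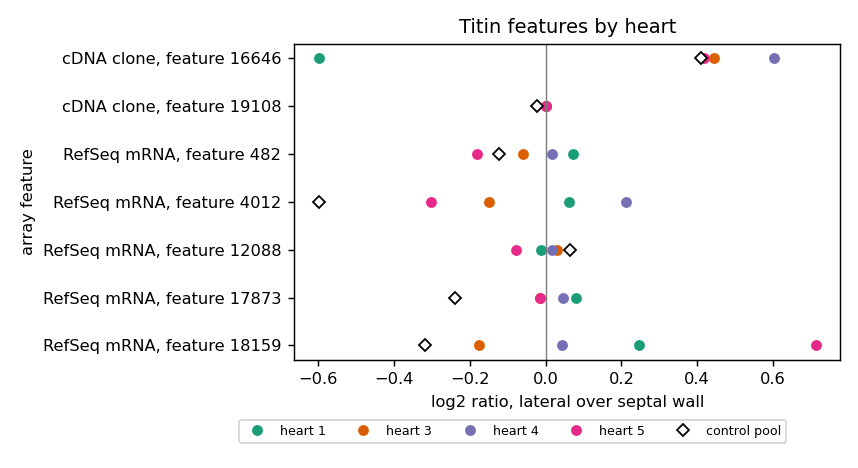
Log2 ratio of lateral over septal wall for each of the 7 titin features, with 1 point per dyssynchronous heart and a diamond for the control pool. Features 482, 12088 and 17873 stay between -0.18 and 0.082 in the hearts, while the cDNA clone feature 16646 runs from -0.60 to 0.60.

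At the Z-disc, Tcap, telethonin, which joins the ends of titin molecules, had 0.34, 1.16, 0.015 and 0.012 in hearts 1, 3, 4 and 5 and -0.22 in the pool. All hearts were above 0 and above the pool, hearts 4 and 5 by the least. The mean of 0.38 ± 0.54 (SD, n = 4, limma adjusted p 0.797) was 0.121 without heart 3. Single arrays disagreed, with 0.64 and -0.61 in heart 5 and -1.08 and 0.63 in the pool.

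Actn2, the alpha-actinin that cross-links thin filaments, had -0.10, -0.16, 0.012 and -0.32 in the hearts, with heart 4 alone above 0, and -0.11 in the pool. Its mean was -0.14 ± 0.14 (limma adjusted p 0.797). Csrp3, the muscle LIM protein, averaged -0.075 ± 0.13 (pool -0.14), and Ldb3, the PDZ-LIM protein Cypher, 0.0073 ± 0.068. Of the enigma family relatives, Pdlim3 averaged -0.072 ± 0.092 and Pdlim5 0.048 ± 0.070. These averages join dye orientations of opposite sign. With lateral RNA in Cy5 and in Cy3, the heart arrays averaged 0.20 and -0.35 for Pdlim3, and -0.16 and 0.26 for Pdlim5. Fhl1 and Fhl2, LIM proteins that bind titin, averaged 0.024 ± 0.067 and 0.038 ± 0.11 (SD, n = 4 for each). For Fhl1 every lateral Cy5 array was above 0 and every lateral Cy3 array below. Its orientation means were 0.18 and -0.13 in the hearts, and its pool arrays read 0.18 and -0.15.

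The sign of some members at the Z-disc and in the thin filament, Fhl1 among them, followed the dye rather than the wall. Myoz2, the cardiac calsarcin that ties calcineurin to the Z-disc, read -0.30, -0.28, -0.30 and -0.33 on the lateral Cy5 arrays and 0.25, 0.060, 0.19 and 0.12 on the lateral Cy3 arrays of the hearts. Every Cy5 array was thus below 0 and every Cy3 array above, and the pool did the same at -0.31 and 0.20. The average, -0.074 ± 0.041 (SD, n = 4), is what is left when these cancel. For Myoz1, the skeletal calsarcin, the orientation means were 0.42 and -0.41, with an average of 0.0020 ± 0.20. Nebl, nebulette, read -0.43 and 0.44, with exact zeros on 6 of 10 arrays. Of the thin filament genes, Tnnt1 read -0.35 and 0.13. Orientation means also had opposite signs for Tnnt2 (0.063 and -0.052), Tnni3, Tpm1, Tpm2, Tpm3, Acta1 and Tmod1, but not for Tnnc1, Tnni1 and Actc1. The lateral Cy5 array lay on the same side of the lateral Cy3 array in all 4 hearts for 10 of 29 members. These included 4 of 11 thin filament and 4 of 12 Z-disc genes, against 5197 of all 16504 genes.

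**Figure D4:**
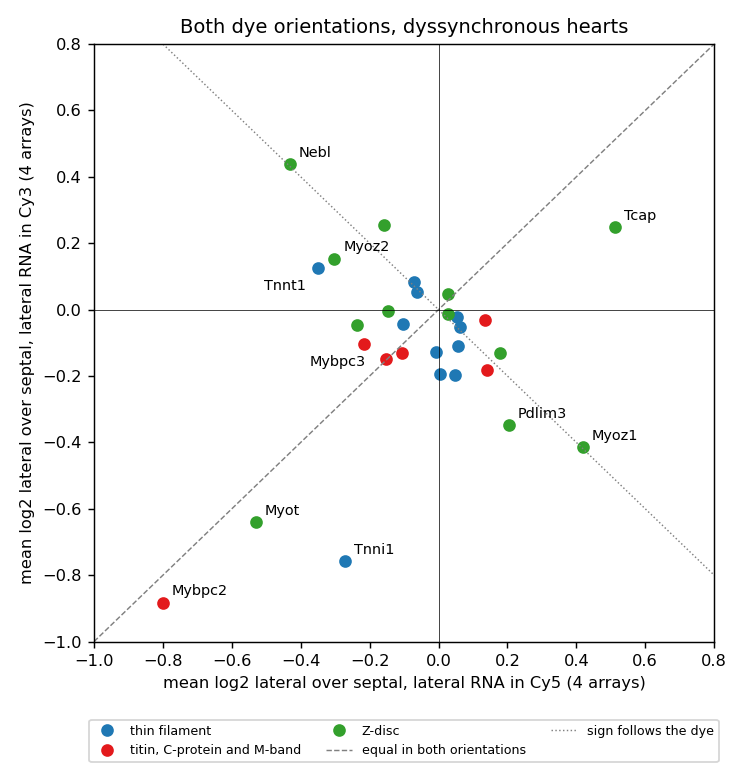
Mean log2 ratio of lateral over septal wall over the 4 heart arrays with lateral RNA in Cy5 (horizontal) against the 4 with lateral RNA in Cy3 (vertical), 1 point per member. Mybpc2, Myot and Tnni1 lie at the lower left with the same sign in both orientations, while Myoz1, Myoz2 and Nebl lie along the line on which the sign follows the dye.

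The dye part, which is the mean of the 2 orientations before the sign is turned, was -0.23 ± 0.044 for Myoz2, 0.42 ± 0.24 for Myoz1, 0.041 ± 0.073 for Mybpc2 and 0.054 ± 0.037 for Myot (SD, n = 4). If the deposited values had already been turned to one wall over the other, these dye parts would be the wall ratios, with unknown direction, and Mybpc2 and Myot would be near 0. The heart means of the markers Myl7, Dkk3 and Comp, -4.54, -2.71 and -2.46, would then be dye effects. In the pool these markers stood at -0.12, -0.59 and -0.52. Their dye parts in the hearts were -0.11, 0.251 and 0.239. Over all genes the turned arrays of each heart correlated negatively, as given below. Which reading holds was not tested. Across the 29 members the 2 turned arrays of a heart had a Pearson r of 0.32, 0.18, 0.07 and 0.02, against -0.68 for the pool. Over all 16504 genes the correlations were -0.30, -0.35, -0.28, -0.17 and -0.30 in that order. Genes of an array are not independent replicates, and the 2 arrays share their RNA.

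The hearts were then set against the pool, to compare the wall difference under dyssynchrony with the one in synchronous mice. The pool's side rests on reading its source names, PNL and PNS, as lateral and septal. On that reading all 4 hearts were above the pool for 12 of 29 members, where 17.7% of all genes were, and below it for 5 members, where 18.1% of all genes were. The 12 included 7 of the 11 thin filament genes, Tnnt2, Tnni3, Tpm1, Tpm2, Tpm3, Actc1 and Tmod1, for Actc1 by under 0.001 in heart 3. They also included Ttn, Tcap, Ldb3, Pdlim5 and Fhl2. The 5 below the pool were Tnni1, Mybpc2, Myom1, Myoz1 and Myot. Taken in each dye orientation against the pool array of the same orientation, an alternative added after the data were seen, the 12 became 8 with lateral RNA in Cy5, where 18.9% of all genes were above, and 3 with lateral RNA in Cy3, where 14.3% were. Both orientations placed all hearts above the pool for Tnnt2 and Ttn, where 3.87% of all genes were, and below it for Mybpc2, Myoz1 and Myot, where 3.46% were. With the sign of the pool turned, also added after the data were seen, 1 member (Myoz1) was above the pool, against 21.6% of all genes, and 18 were below it, against 20.3%. Tnni1, Mybpc2, Myom1 and Myot were below the pool with either sign, while Myoz1 and the 7 thin filament genes among the 12 changed side. The direction for the genes that changed side thus depends on the reading of the source names. Lying above the pool was not particular to the members. As signed here, 5 of 12 ventricular markers had all hearts above it, against 17.7% of all genes, and 1 had all below, against 18.1%. Among the 5, the heart mean was above the pool by 0.33 for Myl3 and 0.44 for Myh6.

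Farthest from the pool were Tcap, 0.60 above it, Tnni1 at -0.51 and Mybpc2 at -0.42. With the pool's sign turned these differences were 0.156, -0.518 and -1.265, and Mybpc2, Myot (at -0.82) and Tnni1 were then farthest. limma, which here assumes that the pool varies like 1 heart, called 0 of 29 members and 0% of all genes for the difference, with adjusted p-values of 1 for each of these 3 genes. At an unadjusted p under 0.05 there were 0 members and 783 genes. An unmoderated test called 1 gene and the fits of single arrays 3 genes each, none of them a member. For Tcap the difference was 1.596 with lateral RNA in Cy5 and -0.386 with lateral RNA in Cy3. With 1 pool, the spread between synchronous animals was not measured.

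**Figure D5:**
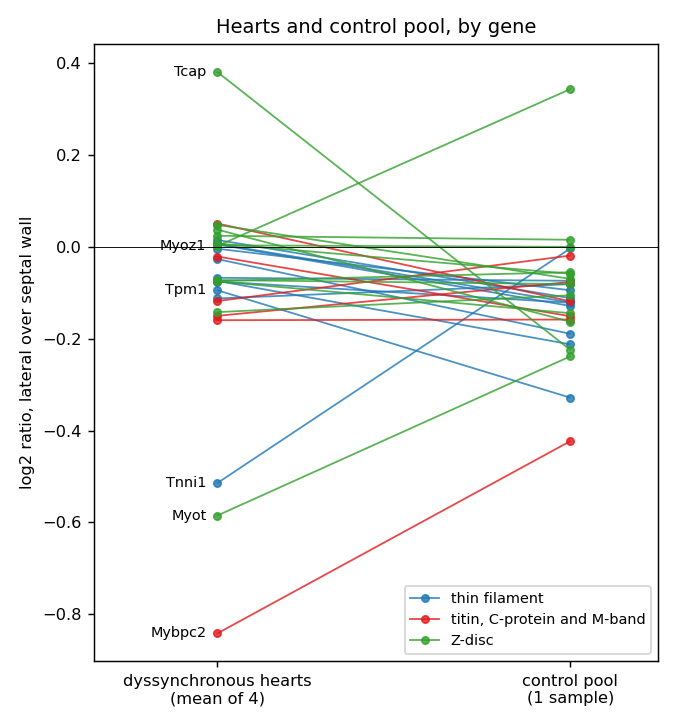
Log2 ratio of lateral over septal wall for each of the 29 members, as the mean of the 4 dyssynchronous hearts on the left joined to the control pool on the right. Mybpc2 and Myot are below 0 on both sides, Tnni1 is near 0 in the pool only, and most thin filament genes lie lower in the pool than in the hearts as the pool is signed here.

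A list of other genes of the sarcomere and its Z-disc, M-band and chaperone partners was also counted. Of 49 listed genes 45 were measured, with a median of -0.037 and 40 means between -0.2 and 0.2. In all 4 hearts 10 of the 45 were lower laterally, where 7.63% of all genes were, and 2 were higher, where 7.8% were. limma called 0 of the 45, with 5 at an unadjusted p under 0.05, against 934 of all 16504 genes. Synpo2l, a synaptopodin relative of the Z-disc, had -0.30, -0.44, -0.47 and -0.99 in the hearts, below the pool at -0.20 in each, and was below 0 on all 8 heart arrays. Its mean was -0.55 ± 0.30 (SD, n = 4, limma adjusted p 0.797). Nrap, which binds actin at the intercalated disc and in forming myofibrils, had -0.12, -0.40, -0.45 and -0.60 in the hearts and -0.24 in the pool. Its mean was -0.39 ± 0.20 (limma adjusted p 0.797). Heart 1 had the ratio nearest 0 for both genes, as it did for Mybpc2, Myot and Tnni1. Des, the desmin intermediate filament around Z-discs, averaged -0.12 ± 0.10 in the hearts and was at -0.62 in the pool. It was the 1 gene of the list at an unadjusted limma p under 0.05 for hearts minus pool, against 783 of all 16504 genes. Its limma adjusted p was 0.957. Des heart arrays averaged -0.32 with lateral RNA in Cy5 and 0.072 with lateral RNA in Cy3.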

How the data were processed

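Lateral and septal RNA was hybridised to 10 two-colour arrays, 2 with exchanged dyes for each of 4 hearts and 1 pool. The deposited values, made by the authors with Agilent Feature Extraction 7.5 per the submitters' processing notes, were read as log10 of Cy5 over Cy3. The sources used here do not give log base, direction or dye normalization. Values of -2 occurred in 0 named features and exact zeros in 7.69% to 15.1% of features per array. The pool sources, labelled PNL and PNS, were read as lateral and septal.

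Values were multiplied by 3.32 to log2 and signed to lateral over septal. Of 22393 features, 18218 had 1 gene symbol, 16 several and 4159 none. Features were averaged per gene and dye swaps per heart. limma 3.58.1 (R 4.3.3, statmod 1.5.0) fitted hearts and pool over all 16504 genes, two-sided, with Benjamini-Hochberg adjustment and an adjusted p limit of 0.05. It was also run on simulated data, and the shares it called there are not given here. The lack of calls is therefore not read as a lack of wall differences. The number of arrays limits the precision.

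The members, the lists and the rule for genes followed through the alternatives were chosen with earlier results of these data known. Followed were members with the same sign in all hearts and a mean beyond 0.25, the 3 with the largest SD, the 3 farthest from the pool and core cardiac genes. Markers of smooth muscle, endothelium and macrophages had medians of 0.12, -0.067 and 0.16 in the hearts. Alternatives were array medians, a common spread, single orientations, a heart block on single arrays, zeros as missing, other moderation, single features and each heart left out. RefSeq windows were matched by symbol.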

Additional observations from a re-analysis of the deposited data

Results flagged for a closer look

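Each of the 29 measured members was examined for 1 heart far from the other 3, which chance gives in about 1 of 20 sets. Myoz1 was at 0.30 in heart 4, while hearts 1, 3 and 5 lay between -0.12 and -0.069, with heart 4 arrays of 0.65 and -0.049 and a pool ratio of 0.34. Fhl2 was at 0.198 in heart 5, while hearts 1, 3 and 4 lay between -0.028 and 0.0032, with both heart 5 arrays above 0 (0.18 and 0.21).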

How the results depend on the processing

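The precision is limited by 4 hearts, 1 pool and the absence of channel intensities, so features near background could not be left out. limma called 0 genes for the wall ratio under every alternative except the single-array fits that took each heart as a random block, which called 23 without and 20 with a dye term. For hearts minus pool these fits called 3 each, and the unmoderated test called 1. Reading the deposited values as already turned also gave 0 calls, with 3140 genes at an unadjusted p under 0.05. That reading exchanges wall and dye parts, so it is left out of the ranges that follow: the dye part of the 29 members had a median of 0.038, and those of Mybpc2 and Myot were 0.041 and 0.054, with unknown direction. Under the other alternatives the median of the 29 members ran from -0.0806 to -0.0284. Members lower laterally in all hearts numbered 7, and 2 beyond 1.2-fold (Mybpc2 and Myot) or 0 beyond 1.5-fold. With 1 heart left out they numbered 8 to 12, the highest without heart 4. The 1 member higher laterally in all hearts became 0 beyond 1.2-fold or 1.5-fold, 4 on the lateral Cy5 arrays, and 1 to 3 with a heart left out (2 without heart 1, 3 without heart 3 and 2 without heart 4). The 12 members above the pool became 3 on the lateral Cy3 arrays and 1 with the pool's sign turned, when the 5 below it became 18.

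Mybpc2 and Myot kept their direction under these other alternatives, with means of -0.95 to -0.751 and -0.652 to -0.534 over the hearts left out and limma adjusted p-values of 0.00679 to 0.866 and 0.00474 to 0.866 over them. Tnni1 ranged from -0.756 on lateral Cy3 arrays to -0.272 on lateral Cy5 arrays. Several ratios changed sign, among them that of Tcap minus the pool, 0.605 with both orientations averaged, and the cause was not tested. On lateral Cy3 arrays Tnnt2 was -0.0523, Tnni3 -0.0234, Ttn -0.0318 and Tcap minus the pool -0.386. On lateral Cy5 arrays Tpm1 was 0.00556, Acta1 0.0463 and Mybpc1 0.14. Mybpc1 was 0.0386 with a common spread, and Ttn -0.00665 as the median of its features. With 1 heart left out, Tnnt2 ranged from -0.0191 to 0.0273 (lowest without heart 1), Tnni3 from -0.0121 to 0.0439 (lowest without heart 4), Mybpc1 from -0.213 to 0.229 (above 0 without heart 4 or 5, where it was 0.0274 without heart 5) and Myom2 from -0.242 to 0.000997 (above 0 without heart 5).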

Other observations

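The fast skeletal relatives of the troponin members were below -1 in heart 5. Tnnt3, fast troponin T, read -0.45, 0.17, 0.42 and -1.34 in hearts 1, 3, 4 and 5 and 0.28 in the pool. Tnni2, fast troponin I, read 0.075, -0.065, 0.48 and -1.24, and Tnnc2, fast troponin C, 0.19, 0.0095, 0.059 and -1.08. In heart 5 the cardiac isoforms Tnnt2, Tnni3 and Tnnc1 read -0.060, 0.012 and 0.076. Csrp2, a LIM protein of smooth muscle, was the one other sarcomere gene above 0 on all 8 heart arrays, at 0.079, 0.21, 0.11 and 0.32, and in the pool it was 0.29.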
